A study of Mus musculus with 6 samples.

Results

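The cyclins and the cyclin-dependent kinases (Cdks) are described here in 6 mouse kidney samples, as 36 genes (17 cyclins and 19 Cdks) of 22180 genes tested. The members were taken by symbol: Ccn with 1 letter and a number, Ccnc, Ccnh, Ccnk, or Cdk with a number, among probe sets that the platform annotation gives exactly 1 gene symbol. 37 probe sets matched, and of the pair for Ccnl2 the one with the higher mean over the 6 arrays was kept. Ccnb1 and Ccne2 were not analysed here. 3 samples were labelled Cre-positive and 3 Cre-negative, all from kidneys of mice aged 4 weeks that had no special treatment, on a mixed background. The labels name a conditional knockout line of Mpp5, the gene of the cell polarity scaffold Pals1, in a background they spell C56Bl/6, and Six2-Cre transgenic mice. Six2-Cre acts in the progenitors of nephron epithelia and leaves vessels, immune cells and the collecting duct unrecombined. The number of conditional Mpp5 alleles in either group is not given in the sources used here, nor whether the samples of a group were different mice. The p-values below therefore cover the spread among the 6 samples alone, and part of that spread may be technical. Xist, given below, differed in the Cre-negative group, so its samples were not all from 1 mouse.

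Cyclins are unstable proteins that bind and switch on Cdks. D-type cyclins with Cdk4 and Cdk6 carry a cell through G1, E-type cyclins with Cdk2 start DNA replication, A-type cyclins act in S phase and G2, and B-type cyclins with Cdk1 drive mitosis. A separate branch of the family, including cyclins H, C, T, K and L and their kinases, controls RNA polymerase II and splicing in cells that do not divide. In the adult kidney most tubule cells are quiescent and enter the cycle after injury.

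Values are log2 levels after RMA (robust multi-array average), and a difference is the Cre-positive minus the Cre-negative mean on that scale, ± SE from limma's fit over all genes. "Rose" and "fell" are used at a Benjamini-Hochberg adjusted p under 0.05. Array medians ran from 5.55 to 5.64. Mpp5 was at 8.04, 8.06 and 8.20 in Cre-positive arrays, against 8.66, 8.69 and 8.78 in Cre-negative arrays. The arrays are not alike in other ways. Xist, the RNA of the silenced X chromosome in females, stood at 4.00 to 4.29 in the Cre-positive arrays, and at 10.76, 10.70 and 4.16 in Cre-negative replicates 1, 2 and 3, so the last is the 1 male Cre-negative array. Cre-negative replicate 2 held adrenal transcripts and Cre-positive replicate 2 skeletal muscle transcripts. Of 10 myeloid markers 9 rose (summed log2 level 82.7 to 93.2 in Cre-positive and 71.1 to 71.9 in Cre-negative arrays), of 9 lymphocyte markers limma called 0 (46.1 to 52.6 and 48.3 to 49.3), and of 10 proximal tubule markers 9 fell (107.7 to 109.5 and 121.3 to 122.2). With p not adjusted and under 0.05, 2 lymphocyte markers were higher and 2 lower. The share of all genes at that cutoff is not given here. Counts at an unadjusted p, here and below, are therefore no result about a list. Of 8 fibroblast and pericyte markers 6 rose (75.3 to 83.1 in Cre-positive and 71.9 to 72.6 in Cre-negative arrays). Of 8 endothelial markers 4 fell (70.2 to 72.4 and 74.4 to 74.8), and of 8 collecting duct principal cell markers 3 rose (73.0 to 76.6 and 71.2 to 73.1). With the sex term the calls were 5 of 10 myeloid, 1 of 8 fibroblast and pericyte and 1 of 8 endothelial markers. For principal cell markers they were 2 of 8, and for proximal tubule markers 9 of 10. Of all genes limma called 21.8%, and 9.15% with the sex term, where differences are against the 1 male Cre-negative array. Median differences were 1.71 (myeloid), 0.86 (fibroblast and pericyte), -0.4 (endothelial), 0.41 (principal cell) and -1.14 (proximal tubule). With the sex term they were 1.65, 0.84, -0.4, 0.42 and -1.31. Without Cre-negative replicate 1, 3 of 8 fibroblast and pericyte markers were called. Without Cre-positive replicate 1, 3 of 9 lymphocyte markers were called higher (Cd3e, Cd3g and Cd4). RMA values have no true zero, so no marker can be said to be at 0. In whole-kidney RNA, fewer cells of a type and less RNA per cell cannot be told apart, and the part that cell makeup plays in the results on the cyclins and Cdks was not tested.

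Of the 36 members, 3 rose in Cre-positive kidneys (Cdk6, Cdk14 and Ccnl1) and 3 fell (Ccnh, Ccnc and Cdk7). That is 16.7% called, where limma called 21.8% of all genes. By direction, 8.33% of the members rose and 8.33% fell, against 10.7% and 11.1% of all genes. These shares are near the background or below it, and are no result about the family as a whole. With sex as a second factor in the fit, 2 members were called higher (Cdk6 and Cdk14), where 4.1% of all genes were, and limma called 0 lower, where 5.05% of all genes were. In that fit 3 members were lower when p was not adjusted and had to be under 0.05. The median difference over the members was 0.07, and -0.01 over all genes, while the median size of the difference regardless of sign was 0.17 and 0.16. Cre-positive and Cre-negative arrays did not overlap for 10 members higher and 6 lower in Cre-positive arrays, where 38.5% of all genes had groups that did not overlap, 18.6% higher and 19.9% lower. An exact permutation test of 1 gene between 3 and 3 arrays cannot give a two-sided p below 0.1. Against the male Cre-negative array alone, the median over the members was 0.03.

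**Figure D1:**
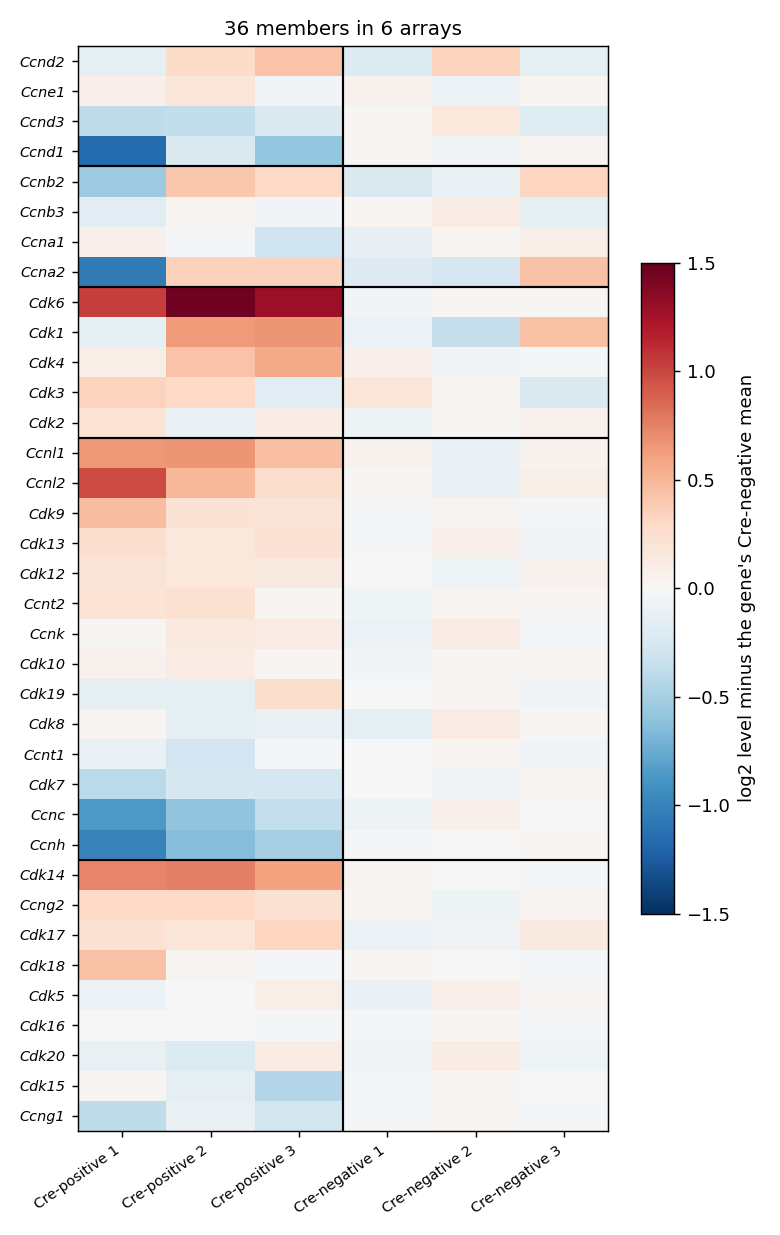
Log2 level of each of the 36 members (rows, grouped by role and separated by lines: G1 cyclins, S/G2/M cyclins, cell-cycle Cdks, CAK and transcriptional members, other members) in each array (columns), minus the gene's Cre-negative mean. Red is above and blue below that mean. Cdk6 and Cdk14 are red, and Ccnh and Ccnc blue, in all 3 Cre-positive arrays, while Ccna2 and Ccnb2 differ in sign between Cre-positive replicate 1 and the other two Cre-positive arrays.

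**Figure D2:**
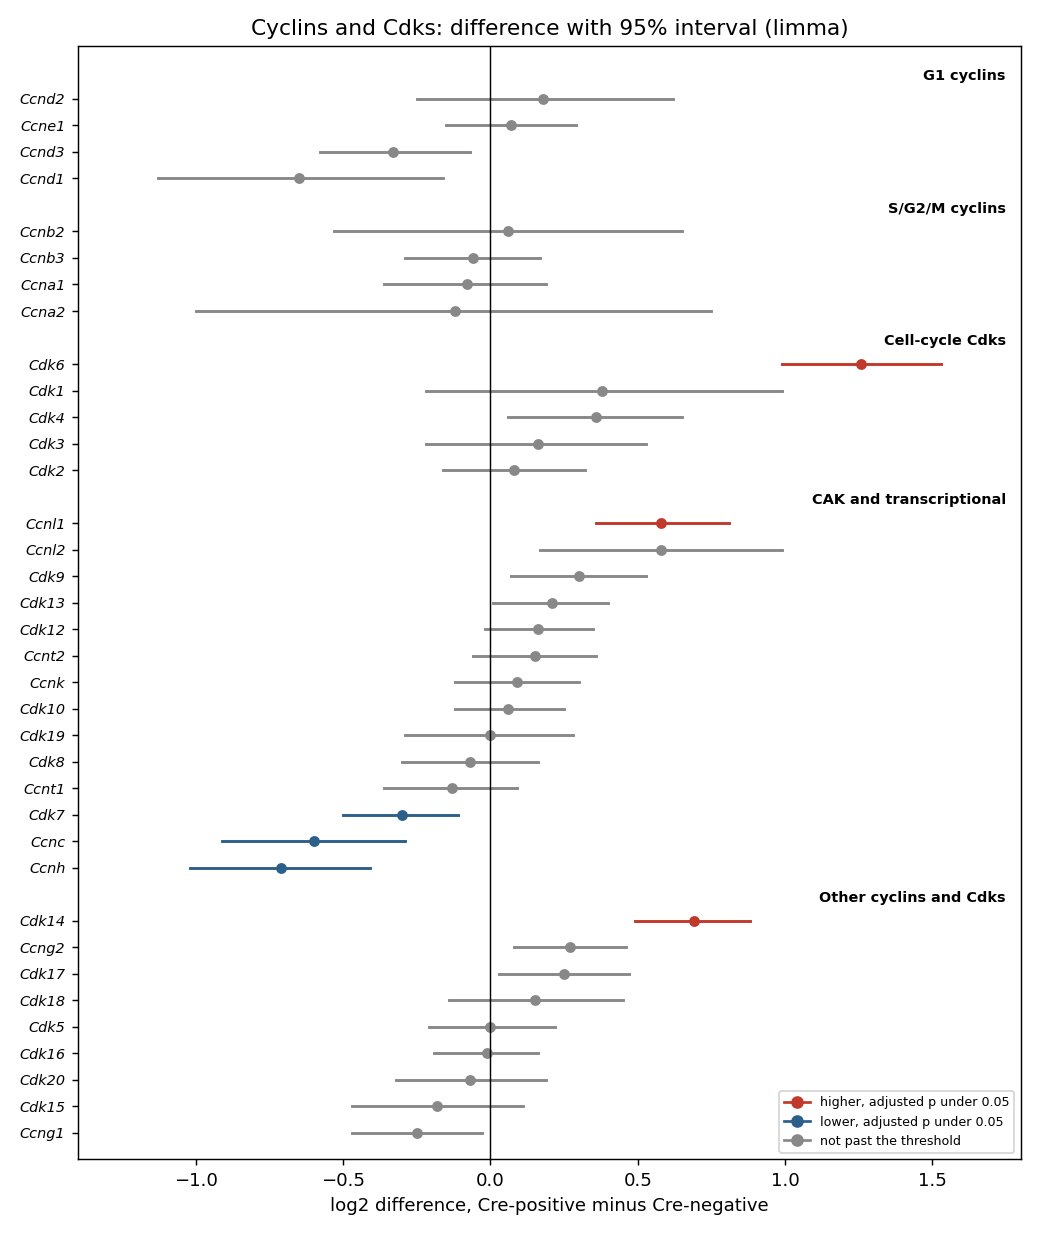
Difference between Cre-positive and Cre-negative arrays for each member, as a point with its 95% interval from limma (3 arrays per group), grouped by role. The 3 members in red rose and the 3 in blue fell, and the widest interval is that of Ccna2, which reaches up to 0.75.

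Among the kinases of G1, Cdk6 carried the largest difference of all 36 members. Cdk6 (probe set 17434297, chromosome 5), a partner of the D-type cyclins, was at 9.33, 9.75 and 9.58 in Cre-positive arrays, against 8.26, 8.31 and 8.32 in Cre-negative arrays. The groups lay about 1 log2 unit apart at their closest, and Cre-positive replicate 1 was the lowest of its group. Cdk6 rose by 1.26 ± 0.12, or 2.39-fold (95% interval 1.98 to 2.88), with limma adjusted p = 0.000386. The call held in each of the 16 alternative fits, with adjusted p from 0.000108 to 0.0274. Against the male Cre-negative array the difference was 1.23.

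Cdk4, the other kinase that D-type cyclins bind, showed a smaller difference that missed the threshold. It was at 10.27, 10.60 and 10.74 in Cre-positive arrays, against 10.25, 10.13 and 10.15 in Cre-negative arrays. The lowest Cre-positive value, that of replicate 1, lay 0.02 above the highest Cre-negative value. The difference was 0.36 ± 0.13 with limma adjusted p = 0.0879, and 0.49 with adjusted p = 0.0142 without Cre-positive replicate 1. Cdk2, the partner of cyclins E and A, was at 7.89, 7.59 and 7.80 in Cre-positive and 7.61, 7.70 and 7.75 in Cre-negative arrays, and the groups overlapped (0.08 ± 0.10, limma adjusted p = 0.672). Cdk3, a kinase known in human cells for the exit from quiescence, was at 5.18, 5.14 and 4.67 in Cre-positive and 5.02, 4.88 and 4.63 in Cre-negative arrays, also with overlap (0.16 ± 0.16).

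Of the 4 measured G1 cyclins limma called 0, and 2 were lower and 0 higher where p was not adjusted and under 0.05. Ccnd1 encodes cyclin D1, the D-type cyclin induced by mitogens. It was at 9.30, 10.24 and 9.88 in Cre-positive arrays, against 10.47, 10.40 and 10.50 in Cre-negative arrays. No Cre-positive value reached the lowest Cre-negative one. The Cre-negative values spanned 0.1, while the Cre-positive values spread over almost 1 log2 unit. The difference was -0.65 ± 0.21 with limma adjusted p = 0.0646, -0.39 with adjusted p = 0.0725 without Cre-positive replicate 1, and -0.86 with adjusted p = 0.0199 without Cre-positive replicate 2. Ccnd3, cyclin D3, was at 8.63, 8.65 and 8.80 in Cre-positive arrays, against 9.03, 9.18 and 8.84 in Cre-negative arrays. The nearest values of the groups, Cre-positive replicate 3 and the male Cre-negative array, were 0.04 apart. Its difference was -0.33 ± 0.11 (limma adjusted p = 0.0722), and -0.15 against the male Cre-negative array. By limma Ccnd3 passed with median centring (adjusted p = 0.0488), trend and robust settings (0.0487) and array weights (0.0416). It also passed among genes at or above the median level (0.0404) and without Cre-negative replicate 3 (0.0468), but in no other alternative. Ccnd1 also passed with median centring (0.0469) and among genes at or above the median level (0.0454).

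Cyclin D2 and cyclin E1 showed no separation of the groups. Ccnd2 was at 8.17, 8.59 and 8.74 in Cre-positive arrays and 8.11, 8.65 and 8.18 in Cre-negative arrays. Each group held both low and high values, and the difference was 0.18 ± 0.19 (95% interval -0.25 to 0.62). Ccne1, whose product activates Cdk2 at the start of S phase, was at 6.32, 6.43 and 6.20 in Cre-positive and 6.31, 6.15 and 6.27 in Cre-negative arrays. The difference was 0.07 ± 0.09 (95% interval -0.15 to 0.29). The differences of the D-type cyclins were thus not all of 1 sign, and those of Cdk6 and Cdk4 were positive where those of Ccnd1 and Ccnd3 were negative.

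**Figure D3:**
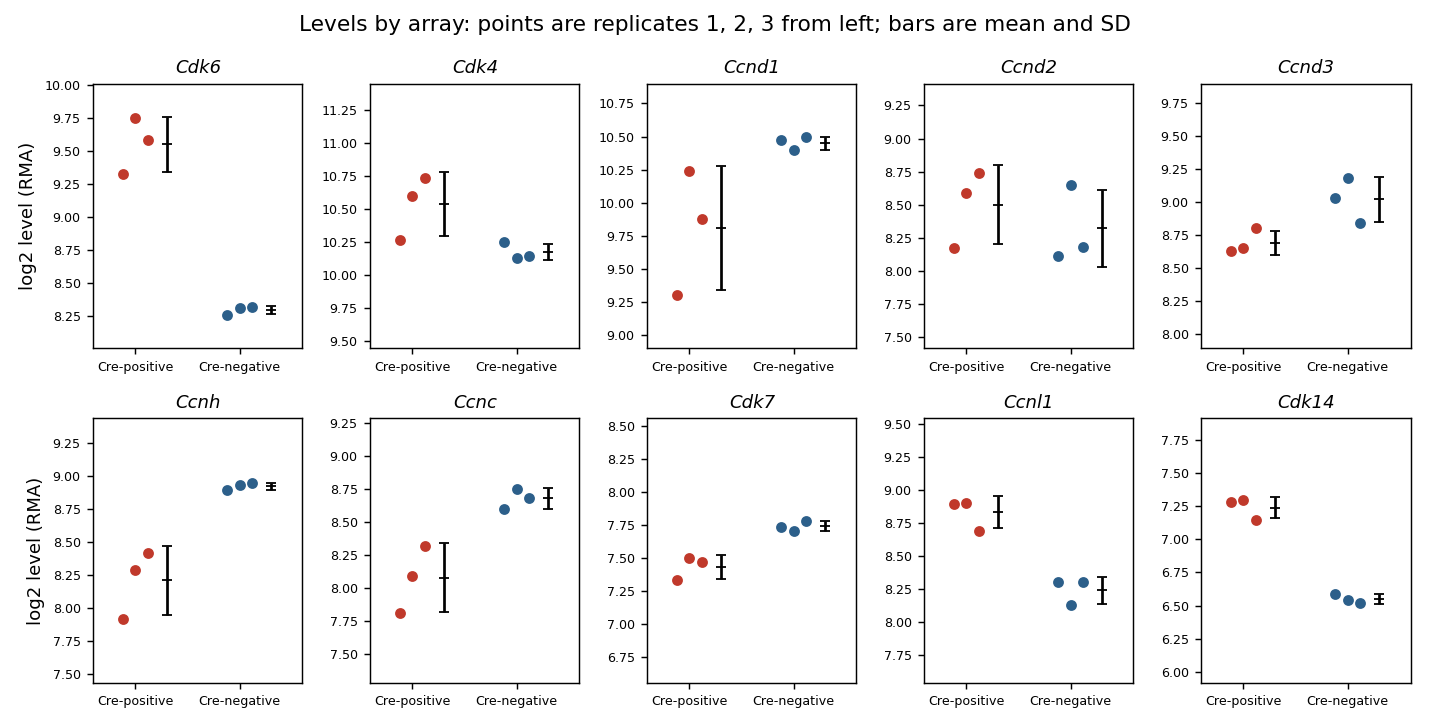
Log2 level in each array for 10 members, with replicates 1, 2 and 3 from left to right, Cre-positive left of Cre-negative, and the mean with its SD (3 arrays) beside each group. Every panel spans 2 log2 units, and the lower limit differs between panels. The groups are far apart for Cdk6 and Cdk14, near each other for Cdk4 and Ccnd3, and overlap for Ccnd2.

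Cyclins of S phase, G2 and mitosis did not differ between the groups beyond their spread, and Ccna2 and Ccnb2 varied widely within each group. Of the 4 measured S/G2/M cyclins limma called 0, and 0 reached an unadjusted p under 0.05. Ccna2, cyclin A2, was at 6.91, 8.31 and 8.32 in Cre-positive arrays, against 7.78, 7.72 and 8.41 in Cre-negative arrays. Cre-positive replicate 1 was the lowest of all 6 arrays, and the male Cre-negative array the highest. The difference was -0.12 ± 0.38 (limma adjusted p = 0.869), and the 95% interval for the fold, 0.502 to 1.69, includes changes of well over 1.5-fold either way. Ccnb2, cyclin B2, was at 6.99, 7.94 and 7.83 in Cre-positive arrays, against 7.32, 7.43 and 7.85 in Cre-negative arrays. The lowest value was again that of Cre-positive replicate 1, and within the Cre-negative group the highest was again that of the male array. Its difference was 0.06 ± 0.25 (limma adjusted p = 0.914).

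Cdk1, the kinase of mitosis that cyclins A2 and B2 activate, followed the same arrays. It was at 6.81, 7.59 and 7.61 in Cre-positive arrays, against 6.86, 6.60 and 7.39 in Cre-negative arrays. Cre-positive replicate 1 lay among the Cre-negative values, and the difference was 0.38 ± 0.26 (limma adjusted p = 0.367). Without Cre-positive replicate 1 the differences of Cdk1, Ccna2 and Ccnb2 were 0.65, 0.35 and 0.35, with limma adjusted p = 0.0874, 0.313 and 0.194. Against the male Cre-negative array they were -0.06, -0.56 and -0.26. The sign of all 3 thus depended on which arrays were compared. The germ-line cyclin Ccna1 (4.84 ± 0.19 in Cre-positive and 4.93 ± 0.11 in Cre-negative arrays, SD, n = 3 each) was below the array medians of 5.55 to 5.64. Ccnb3, also a germ-line cyclin, was lower still (3.19 ± 0.11 and 3.24 ± 0.12), on a scale that started at 1.89.

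The promoters of Ccnb2 and Cdk1 are shown as examples, chosen after the levels of these genes were seen. Their proximal sequence holds elements by which the cell cycle is known to control such genes. Any part of these elements in the levels of the 6 arrays was not tested. The windows run from 250 bases before to 50 after the gene start in RefSeq (GRCm38.p6), both on the minus strand, at chr9:70421505-70421804 for Ccnb2 and chr10:69352863-69353162 for Cdk1. Capitals mark the cell cycle genes homology region, or CHR (TTTGAA), the CCAAT box (CCAAT, or ATTGG where it lies on the opposite strand) and the E2F element (TTTCCCGC, TTTCGCGC, TTTGCCGC or TTTGGCGC), each searched on both strands.
Ccnb2: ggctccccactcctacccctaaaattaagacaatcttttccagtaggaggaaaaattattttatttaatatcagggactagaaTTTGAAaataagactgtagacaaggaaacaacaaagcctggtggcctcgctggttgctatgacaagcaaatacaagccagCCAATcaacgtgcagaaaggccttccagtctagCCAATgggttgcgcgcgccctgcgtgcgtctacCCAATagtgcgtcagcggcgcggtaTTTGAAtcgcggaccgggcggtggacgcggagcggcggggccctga
Cdk1: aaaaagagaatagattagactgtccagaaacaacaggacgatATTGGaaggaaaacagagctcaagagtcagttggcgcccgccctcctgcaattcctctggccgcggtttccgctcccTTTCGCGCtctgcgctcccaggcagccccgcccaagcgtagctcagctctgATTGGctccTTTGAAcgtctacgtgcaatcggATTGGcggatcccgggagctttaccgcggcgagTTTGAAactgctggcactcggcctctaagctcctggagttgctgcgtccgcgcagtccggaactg
In Ccnb2, CCAAT boxes begin 87, 54 and 21 bases before the start, and a CHR begins 5 bases after it, with another CHR 167 bases before. In Cdk1, CCAAT boxes begin 208, 80 and 48 bases before the start, CHR matches begin 71 and 15 bases before it, and an E2F match (TTTCGCGC) begins 131 bases before it. Of 28 members with a window, 3 held both a CHR and a CCAAT box (Ccnb2, Cdk1 and Cdk16), where 6.95% of all 32851 RefSeq windows did. The 28 members had 30 windows, and a match in any window counted for its gene. The shares of all windows count single windows, so the measures are not quite alike. A CHR was present in 3 of the 28, against 17.9% of all windows, and a CCAAT box in 14 of the 28, against 37.4%. An E2F match was present in 2 of the 28, Cdk1 and Cdk2, against 2.26%. A match of letters is a description and not evidence of a bound site in these kidneys. Ccna2 has no window in the table used.

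The genes of mitosis had the same order of arrays as Ccna2, Ccnb2 and Cdk1. This order was looked at after its values were seen. In 22 of 24 mitosis genes Cre-positive replicate 1 was the lowest Cre-positive array and replicate 3 the highest Cre-negative array, which held for 10.7% of all genes, and in 15 of 24 DNA replication genes. The median deviation of the mitosis genes from their Cre-negative means was -0.46, 0.30 and 0.22 in Cre-positive replicates 1, 2 and 3, and -0.11, -0.19 and 0.26 in Cre-negative replicates 1, 2 and 3. Mki67, the gene of the proliferation antigen Ki-67, was at 7.15, 8.35 and 8.14 in Cre-positive and 7.82, 7.54 and 8.28 in Cre-negative arrays. Top2a, topoisomerase II alpha, was at 5.71, 6.79 and 6.57 in Cre-positive and 6.38, 6.19 and 6.81 in Cre-negative arrays. Cre-positive replicate 1 was also the lowest Cre-positive array for 10 of 10 myeloid, 8 of 9 lymphocyte and 8 of 8 fibroblast and pericyte markers, against 32.5% of all genes. The median deviations of the myeloid markers in the Cre-positive arrays were 1.06, 1.70 and 2.34, all above the -0.05 to 0.02 of the Cre-negative arrays. The part of these cells in the level of the S/G2/M cyclins was not tested.

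**Figure D4:**
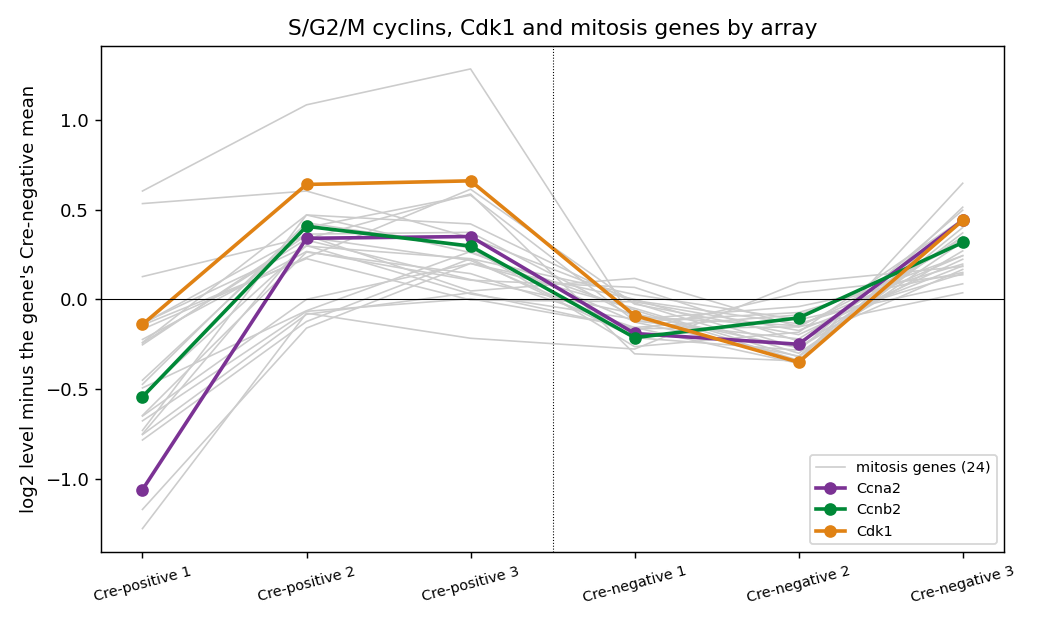
Log2 level minus the gene's Cre-negative mean, by array, for Ccna2, Ccnb2 and Cdk1 (coloured lines) and 24 mitosis genes (grey lines); lines join the arrays of a gene and imply no order in time. Nearly all lines dip in Cre-positive replicate 1 and are raised in Cre-negative replicate 3, and the 2 highest grey lines in Cre-positive replicate 1 are Kif23 and, above it, Anln.

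Set side by side, G1 and S/G2/M cyclins had median differences of -0.13 and -0.07, with -0.01 over all genes. The S/G2/M median lay between the differences of Ccna1 (-0.08) and Ccnb3 (-0.06), both with levels below the array medians. Ccna2 and Ccnb2 had differences of -0.12 and 0.06, and Ccnb1 was not analysed. Neither list had a member past the threshold in the reported fit, though Ccnd1 and Ccnd3 passed in some of the alternative fits. With the sex term the medians were -0.05 for the G1 and -0.22 for the S/G2/M cyclins, so the order of the lists turned round. Male arrays alone give the same differences by construction and are no separate check. The S/G2/M median was 0.17 without Cre-positive replicate 1 and 0.03 without Cre-negative replicate 3. Among genes at or above the median level, the S/G2/M median was -0.03, with Ccna2 and Ccnb2 left. The G1 median there was -0.33, with Ccnd1, Ccnd2 and Ccnd3 left. The median deviation from the Cre-negative means was -0.27, -0.02 and -0.13 for the G1 cyclins in Cre-positive replicates 1, 2 and 3, and -0.36, 0.19 and 0.13 for the S/G2/M cyclins. In the Cre-negative arrays the same medians were 0.01, 0.05 and -0.06 for the G1 cyclins and -0.16, -0.03 and 0.20 for the S/G2/M cyclins. The G1 list was below 0 in all 3 Cre-positive arrays by up to 0.27, and also in Cre-negative replicate 3. Its median in Cre-positive replicate 2 (-0.02) lay within the Cre-negative range, so the groups overlapped. The S/G2/M list lay on both sides of 0 in both groups. The 5 cell-cycle Cdks had a median difference of 0.36, and 5 of 5 differences were positive, 1 of them, that of Cdk6, past the threshold. Over all genes 10628 of 22180 differences were positive. Those of Cdk2 (0.08 ± 0.10) and Cdk3 (0.16 ± 0.16) did not exceed their SE, and Cdk3 lay below the array medians. The median of the cell-cycle Cdks was 0.21 without Cre-negative replicate 2 and 0.17 without both arrays numbered 2. With the sex term the difference of Cdk1 was -0.06. With 4 genes in each cyclin list, no difference between the lists was tested.

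In the branch that serves the Cdk-activating kinase (CAK) and RNA polymerase II, 4 of 14 members passed, 1 higher and 3 lower. That is 28.6% called, against 21.8% of all genes. With the sex term limma called 0 of the 14, with 1 higher and 3 lower where p was not adjusted and under 0.05, and 2 of 14 were called without Cre-negative replicate 2 or without replicate 3. Cyclin H and Cdk7 form the CAK with the assembly factor Mnat1, which switches on other Cdks and phosphorylates RNA polymerase II as part of TFIIH. Ccnh was at 7.92, 8.29 and 8.42 in Cre-positive arrays, against 8.89, 8.93 and 8.95 in Cre-negative arrays. The groups were clearly apart, and Cre-positive replicate 1 was the lowest. Ccnh fell by 0.71 ± 0.13 on the log2 scale to 0.611 of the Cre-negative level (95% interval 0.495 to 0.754), with limma adjusted p = 0.00712. Cdk7 was at 7.33, 7.50 and 7.47 in Cre-positive arrays, against 7.73, 7.70 and 7.78 in Cre-negative arrays. It fell by 0.30 ± 0.09 (limma adjusted p = 0.0399), a call lost on leaving out any 1 of the 6 arrays (adjusted p = 0.0508 to 0.123). Mnat1 was at 7.63, 7.71 and 7.49 in Cre-positive and 7.70, 7.55 and 7.60 in Cre-negative arrays, and its groups overlapped (-0.01 ± 0.09).

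Cyclin C belongs to the kinase module of Mediator, with Cdk8 or its close relative Cdk19. Ccnc was at 7.81, 8.09 and 8.32 in Cre-positive arrays, against 8.60, 8.75 and 8.68 in Cre-negative arrays. The Cre-positive values were all lower, with replicate 1 lowest. Ccnc fell by 0.60 ± 0.13 (limma adjusted p = 0.0157, fold 0.659). Its kinases had groups that overlapped, Cdk8 with a difference of -0.07 ± 0.10 and Cdk19 with one far smaller than its SE of 0.12. The calls of Ccnh and Ccnc were lost with sex as a second factor, at adjusted p = 0.0694 and 0.123, though the differences, -0.73 and -0.61, were no smaller. Ccnc also lost its call without Cre-negative replicate 2 (adjusted p = 0.0578) or replicate 3 (0.0501).

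Cyclins L1 and L2 take part in splicing with kinases of the Cdk11 kind. Ccnl1 was at 8.89, 8.90 and 8.69 in Cre-positive arrays, against 8.30, 8.13 and 8.30 in Cre-negative arrays, with no overlap. It rose by 0.58 ± 0.10 (1.5-fold, limma adjusted p = 0.00467), and by 0.53 with the sex term, where the call was lost (adjusted p = 0.0754). Ccnl2 was at 9.57, 9.09 and 8.85 in Cre-positive arrays, against 8.61, 8.48 and 8.68 in Cre-negative arrays. Here Cre-positive replicate 1 was the highest, and the difference of 0.58 ± 0.18 just missed the threshold (limma adjusted p = 0.0503). It was 0.38 without Cre-positive replicate 1. The dimmer Ccnl2 probe set was at 6.88, 6.75 and 6.52 in Cre-positive and 6.68, 6.50 and 6.54 in Cre-negative arrays, with overlap, and the mean of both probe sets gave 0.36 (limma adjusted p = 0.111). Cdk9, the kinase of P-TEFb that releases paused polymerase, had a difference of 0.30 ± 0.10 (limma adjusted p = 0.0679), with 7.35, 7.10 and 7.08 in Cre-positive and 6.85, 6.93 and 6.87 in Cre-negative arrays. Its cyclins T1 (Ccnt1, -0.13 ± 0.10) and T2 (Ccnt2, 0.15 ± 0.09) did not pass. The elongation kinases Cdk12 (0.16 ± 0.08) and Cdk13 (0.21 ± 0.08), which are close in sequence, had higher values in every Cre-positive array without passing, while Ccnk (0.09 ± 0.09), the cyclin of both, and Cdk10 (0.06 ± 0.08) had groups that overlapped.

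Of the 9 other members, 1 passed, which is 11.1% called, against 21.8% of all genes. Cdk14, a kinase tied to the plasma membrane by cyclin Y and known in Wnt signalling, was at 7.28, 7.30 and 7.15 in Cre-positive arrays, against 6.59, 6.54 and 6.52 in Cre-negative arrays. The spread within each group was small and the gap between groups large. Cdk14 rose by 0.69 ± 0.08, or 1.61-fold (95% interval 1.41 to 1.84), with limma adjusted p = 0.0012. With the sex term it held (adjusted p = 0.0193), and with male arrays alone it did not (0.0535). Ccng2, a cyclin linked to cell cycle arrest, was at 7.97, 7.97 and 7.89 in Cre-positive and 7.70, 7.60 and 7.72 in Cre-negative arrays, and its difference of 0.27 ± 0.08 just missed the threshold (limma adjusted p = 0.0514). Ccng1, a p53 target, was at 11.30, 11.57 and 11.41 in Cre-positive and 11.67, 11.71 and 11.67 in Cre-negative arrays (-0.25 ± 0.09, limma adjusted p = 0.0994). These cyclins G thus had differences of opposite sign, with no overlap of the groups in either. Cdk17 had a difference of 0.25 ± 0.09, and its relatives Cdk16 and Cdk18 of -0.01 ± 0.08 and 0.15 ± 0.13. Cdk5, a kinase best known from neurons, had one of 0.00 ± 0.09, Cdk15 of -0.18 ± 0.13 and Cdk20 of -0.07 ± 0.11.

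Among the regulators of the kinases, Cdkn1a showed the largest difference. Of 8 Cdk inhibitors 2 rose and 1 fell, which is 37.5% called, against 21.8% of all genes. Cdkn1a, which encodes p21, was at 9.93, 9.79 and 10.09 in Cre-positive arrays, against 8.31, 8.41 and 8.36 in Cre-negative arrays, and rose by 1.57 ± 0.10. Cdkn2b, or p15, an inhibitor of Cdk4 and Cdk6, rose by 0.47 ± 0.13, and Cdkn1c, or p57, fell by 0.72 ± 0.12. Cdkn1b, or p27, was at 0.01 ± 0.11. Of 7 activators, inhibitory kinases and Cks subunits 3 rose and 1 fell, which is 57.1% called. The phosphatase gene Cdc25b (0.57 ± 0.10) and Wee1, a kinase that restrains Cdk1 (0.73 ± 0.12), rose.

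The small Cks subunits, which help Cdks to bind their substrates, went opposite ways. Cks1b was at 7.48, 7.82 and 7.55 in Cre-positive arrays, against 7.20, 7.27 and 7.24 in Cre-negative arrays, and rose by 0.38 ± 0.11 (limma adjusted p = 0.0408). Cks2 was at 8.91, 8.97 and 9.49 in Cre-positive arrays, against 10.45, 10.41 and 10.55 in Cre-negative arrays, and fell by 1.35 ± 0.15 (limma adjusted p = 0.000917). With the sex term the calls of Cdkn1a, Cdc25b and Cks2 held, and those of Cdkn1c, Cdkn2b, Wee1 and Cks1b did not. Beside that fall stand the differences of Ccna2, Ccnb2 and Cdk1, given above, none of which passed.

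Of 20 pocket proteins, E2F and DREAM complex genes, 1 rose and 2 fell, which is 15% called, against 21.8% of all genes. Tfdp1, the partner of E2F factors, rose by 0.44 ± 0.11, Rbl1, which encodes p107, fell by 0.48 ± 0.11, and Lin52, a subunit of the DREAM complex, fell by 0.81 ± 0.11. Rb1 (0.01 ± 0.09) and E2f1 (0.12 ± 0.09) did not pass. Of 19 genes of cyclin degradation 1 rose, the activator Fzr1 (0.32 ± 0.09), and 1 fell, the subunit Anapc13 (-0.71 ± 0.10). Of 24 DNA replication genes 0 rose and 2 fell by limma's test, Prim1, a primase subunit (-0.54 ± 0.11), and Gmnn, the licensing inhibitor geminin (-0.50 ± 0.10), with 1 higher and 3 lower where p was not adjusted and under 0.05. Of 24 mitosis genes 2 rose and limma called 0 lower, with none lower at an unadjusted p under 0.05. The pair that rose were Anln, anillin (0.99 ± 0.23), and Kif23 (0.50 ± 0.11), which act in cytokinesis. Neither call held with the sex term. The shares called were 10.5% for cyclin degradation and 8.33% each for DNA replication and mitosis. All lists of this paragraph were thus below the share of all genes, and the counts are no result about the lists.

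Partners of the transcriptional Cdks moved in both directions. Of 12 measured genes 5 rose and 3 fell, which is 66.7% called, against 21.8% of all genes. Those that fell were Hexim1 (-0.39 ± 0.10), Hexim2 (-0.35 ± 0.09) and Larp7 (-0.54 ± 0.15), which encode proteins of the 7SK particle that holds P-TEFb inactive. Mepce, another gene of that particle, did not pass (-0.04 ± 0.09, limma adjusted p = 0.82). Those that rose were the Mediator genes Med12 (0.47 ± 0.08) and Med13l (0.66 ± 0.13) and the elongation factor genes Aff4 (0.31 ± 0.08), Ell (0.57 ± 0.12) and Ell2 (0.71 ± 0.18). The Mediator genes Med13 (0.03 ± 0.08) and Med12l (-0.12 ± 0.09) did not pass. None of these 8 calls held with the sex term, where limma called 0 of the 12, with 5 higher and 2 lower where p was not adjusted and under 0.05. That fit called 9.15% of all genes. When the arrays with muscle and adrenal transcripts, both numbered 2, were left out together, 1 of the 12 was called, Ell.

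**Figure D5:**
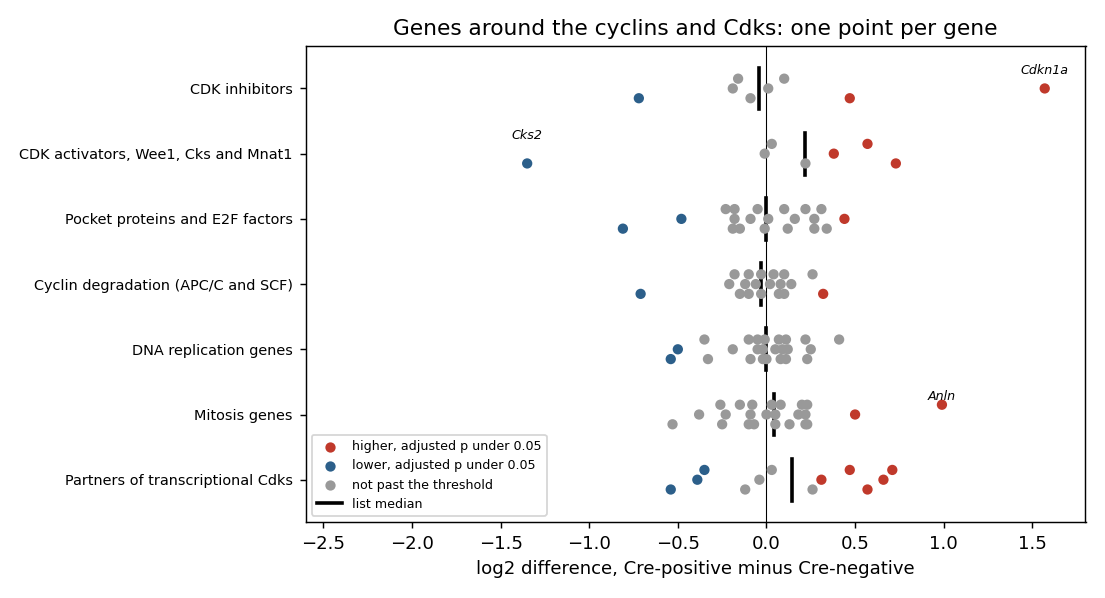
Difference between Cre-positive and Cre-negative arrays for each gene of 7 lists around the cyclins and Cdks, 1 point per gene, with the list median as a black bar. Points in red rose and points in blue fell; Cdkn1a lies farthest to the right and Cks2 farthest to the left, while most replication and mitosis genes lie near 0.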

How the data were processed

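Per the labels' protocols, biotin labelling of total kidney RNA followed Affymetrix's WT Plus procedure, with 6 samples on 6 arrays. The authors deposited log2 values made with RMA, named with Partek and no versions in the submitters' processing notes; that they are log2 follows from RMA's convention and their range, 1.89 to 13.59. The genome build behind the probe sets is not given in the sources used here. RMA compresses differences of dim probe sets. Scan dates were not used here, so no batch was tested.

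Of 41345 rows, 23521 had 1 gene symbol; the row of highest mean stood for each of 22180 genes. All 36 members matched RefSeq by Entrez ID. Each gene was tested two-sided by lmFit and eBayes of limma 3.58.1 (R 4.3.3), with Benjamini-Hochberg adjustment over all genes and a threshold of 0.05, a procedure tested on simulated data. Members, lists, tests and alternatives were chosen with earlier results of these data known. Named with values are all G1 and S/G2/M cyclins, cell-cycle Cdks and called members, and up to 8 called genes per list; Mki67, Top2a, Mnat1, Cdkn1b, Rb1, E2f1, Mepce, Med13 and Med12l were added after their values were seen. Sex was read from Xist. Promoters come from RefSeq (GRCm38.p6). There were 0 columns of other samples. The number of arrays limits the precision. Figures were drawn with Python 3.11.15 and matplotlib 3.10.9.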

Additional observations from a re-analysis of the deposited data

How the results depend on the processing

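The counts over all 36 members depended on the fit. Leaving out genes below the median level called 6 higher and 5 lower, eBayes with trend and robust settings 5 and 5, array weights 6 and 4, and median centring 3 and 5, against 3 and 3 as reported. Ccnd3 was among the lower calls in each of these alternatives, and Ccnd1 in the first and the last. The sex term gave 2 higher and 0 lower, male arrays alone 1 and 0 (1 Cre-negative array assumed to vary like the others), and leaving out Cre-negative 2 and Cre-positive 2 together 2 and 0, with 3, 2 and 5 lower at an unadjusted p under 0.05 by limma. Leaving out 1 array gave 3 to 4 higher and 1 (without Cre-negative replicate 2) to 3 lower. Over all genes limma called 4844, but 2030 with the sex term, 1101 with male arrays alone, 1853 without both of those arrays and 3141 (without Cre-negative replicate 1) to 4885 without 1 array. The median of the G1 cyclins was -0.33 among genes at or above the median level, as Ccnd1, Ccnd2 and Ccnd3 were left there, and -0.16 to -0.11 without 1 array. That of the S/G2/M cyclins was -0.03 among genes at or above the median level, and -0.12 to 0.17 without 1 array. With the sex term, or male arrays alone, these medians were -0.05 and -0.22. Of the 6 called members 1, Cdk6, kept its call in all 16 alternatives, and 0 changed sign. Same-numbered arrays deviated from their group means together with r = 0.0297, -0.0422 and -0.0149, and not every array correlated best with its own number. With so few arrays, these values cannot show whether the replicate numbers pair the samples. With a replicate block 3 members were higher and 2 lower, without Cdk7 (adjusted p = 0.084). Except where named, causes were not tested.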
